A study of Mus musculus with 6 samples.

Results

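High endothelial venules are the vessels through which naive lymphocytes leave the blood in lymph nodes and in lymphoid tissue that forms at inflamed sites. Their endothelial cells (ECs) display mucin-like proteins whose sugar chains are fucosylated, sialylated and sulfated, and lymphocytes in the blood attach to these decorated chains. The venules are maintained by lymphotoxin, a ligand made mainly by lymphocytes, which acts through the lymphotoxin β receptor on endothelial and stromal cells. The genes examined here were chosen by name as 10 of the 22183 genes in the deposited count table. They cover the displayed proteins (Glycam1 and Madcam1), the enzymes of the sugar chains (Chst4, Chst2, Fut7 and Gcnt1), the lysophospholipase D autotaxin (Enpp2), the receptor (Ltbr) and its ligand chains (Lta and Ltb). Each symbol matched a single row.

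The question was how these genes differed between cell fractions isolated as peritoneal ECs from mice exposed to peritoneal dialysis (PD) fluid and from saline-treated mice. Wild-type male C57BL/6J mice, 8 to 10 weeks old, received daily intraperitoneal injections for 6 weeks, of saline in 3 mice (saline mice) and of the glucose-based PD fluid Dianeal in 3 mice (PD mice). A separate RNA sequencing library was made for each mouse, and between 21973426 and 26374292 reads per library were counted on genes. For the cell isolation, the sample labels give magnetic selection of CD31+ cells, whereas the study's methods give flow sorting of CD31+ CD45- cells from digested mesentery.

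The 12 endothelial marker genes listed for the check of cell type were each detected above 3 counts in all 6 libraries, but genes of leukocytes were abundant as well. Per length, Ptprc, which encodes CD45, was at 624 ± 30.2 FPKM (the fragment count relative to transcript length and library size, SD, n = 3 mice) in saline mice and 392 ± 7.73 FPKM in PD mice. Pecam1, which encodes CD31, was at 145 ± 4.44 and 158 ± 5.11 FPKM, and the endothelial cadherin Cdh5 at 4.72 ± 0.715 and 8.37 ± 0.365 FPKM. The libraries are therefore described as the sorted fraction, not as pure ECs. Fewer cells of a type and less RNA per cell cannot be told apart in such libraries.

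The upstream sequences of 4 of the genes are given first, because Glycam1 and Chst4 had the largest rises of the 10 genes, whereas Madcam1 and Ltb carried the only motif matches. Each is the 250 bases before the RefSeq transcription start on GRCm38.p6, written 5′ to 3′ on the strand of the gene, with a motif match in capitals.
Glycam1, chr15:103565082-103565331, - strand: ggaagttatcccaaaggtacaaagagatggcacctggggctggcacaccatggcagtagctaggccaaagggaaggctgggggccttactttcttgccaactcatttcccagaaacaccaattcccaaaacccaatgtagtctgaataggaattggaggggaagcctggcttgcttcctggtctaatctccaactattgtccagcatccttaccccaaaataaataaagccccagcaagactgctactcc
Chst4, chr8:110039335-110039584, - strand: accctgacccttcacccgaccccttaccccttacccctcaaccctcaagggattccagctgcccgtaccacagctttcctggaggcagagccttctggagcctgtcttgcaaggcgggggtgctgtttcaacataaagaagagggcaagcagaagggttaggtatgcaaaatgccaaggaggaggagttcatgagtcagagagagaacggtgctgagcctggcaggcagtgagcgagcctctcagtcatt
Madcam1, chr10:79664309-79664558, + strand: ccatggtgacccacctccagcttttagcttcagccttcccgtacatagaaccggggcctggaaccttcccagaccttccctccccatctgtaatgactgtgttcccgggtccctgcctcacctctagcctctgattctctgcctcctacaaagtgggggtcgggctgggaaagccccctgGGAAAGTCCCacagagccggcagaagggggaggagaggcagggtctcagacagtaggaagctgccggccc
Ltb, chr17:35194257-35194506, + strand: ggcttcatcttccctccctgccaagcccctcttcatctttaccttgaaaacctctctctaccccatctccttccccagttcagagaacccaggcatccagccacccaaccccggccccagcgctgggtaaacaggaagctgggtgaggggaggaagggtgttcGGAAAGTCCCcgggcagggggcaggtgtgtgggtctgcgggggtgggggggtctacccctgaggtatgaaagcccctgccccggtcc
The window was searched on both strands for an NF-κB motif (GGGA and TTCC separated by any 2 bases), a RelB-type NF-κB motif and the ETS motif CCGGAAGT. Promoters were available for 9 of the 10 genes, with 12 windows in all. Madcam1 and Ltb each held the letters GGAAAGTCCC, which is the NF-κB motif on the opposite strand, beginning 70 bases before the transcription start in Madcam1 and 87 bases before it in Ltb. Of 32851 promoter windows of this length, 1.21% held the NF-κB motif, 0.07% the RelB-type motif and 2.88% the ETS motif. In the other windows of these genes, none of the 3 motifs was found, which says only that these letters are not in the 250 bases. The pair with the NF-κB match differed in direction in the comparison described next, in which Madcam1 was higher and Ltb lower in PD mice, although both were lower with scaling to endothelial markers.

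All 10 genes passed edgeR's filter on low counts, and 9 of them had at least 10 counts in every library. The exception was Chst4, with 9 counts in saline replicate 2, the lowest count of any of these genes. Compared with saline mice, PD mice had higher levels of 7 genes and lower levels of 2 (TMM scaling, which centres the libraries on the bulk of all genes, and the quasi-likelihood test of edgeR, Benjamini-Hochberg adjusted over 14005 genes, threshold 0.05), whereas scaling to endothelial markers gave 3 higher and 5 lower, with 8.21% of all tested genes higher and 72.3% lower. With TMM scaling, among all tested genes, 58.9% were called, 31.1% higher and 27.8% lower. The genes called higher were Glycam1, Madcam1, Chst4, Chst2, Fut7, Enpp2 and Ltbr, and those called lower were Lta and Ltb. In TMM-scaled CPM, the PD mice and the saline mice did not overlap for any of the 10 genes, as was the case for 65.6% of all tested genes, 34.0% with higher and 31.6% with lower values in PD mice. With each mouse left out in turn, the same 7 genes were called higher and the same 2 lower.

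**Figure D1:**
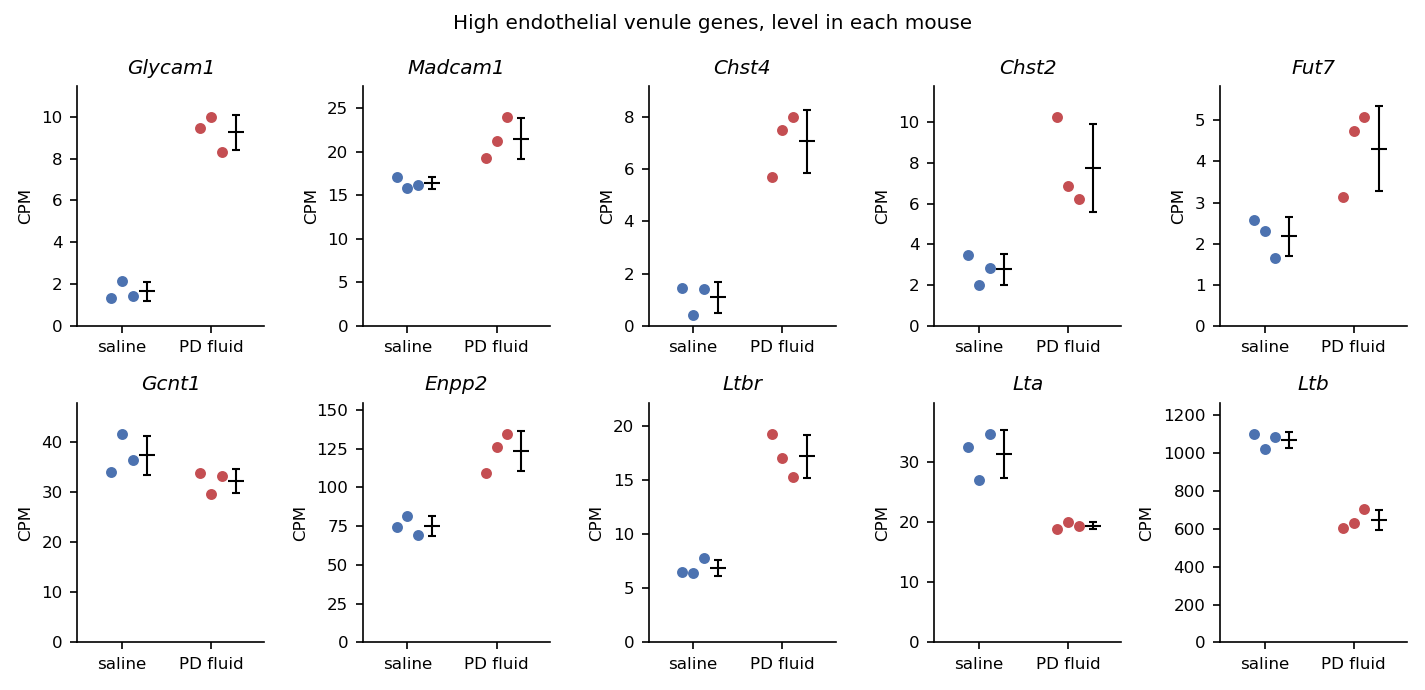
Level of the 10 high endothelial venule genes in CPM (the read count relative to the TMM-scaled library size, linear axes from 0) in each of the 3 saline mice (blue) and 3 PD mice (red), with the mean and SD in black. The red points lie above the blue points for 7 genes and below them for Lta, Ltb and Gcnt1, of which Gcnt1 was not called. Madcam1 and Enpp2 turn lower with scaling to endothelial markers, with which the groups overlap for Enpp2, Chst2 and Fut7. Lta and Ltb overlap with scaling to B and T cell markers.

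Glycam1 encodes a secreted and membrane-associated mucin that carries such chains, and it is among the most restricted genes of high endothelial venules. Glycam1 was at 1.33, 2.17 and 1.45 CPM in the saline mice and at 9.46, 9.98 and 8.34 CPM in the PD mice. The lowest PD mouse thus exceeded the highest saline mouse several times over, on 34 to 47 counts in the saline libraries and 184 to 257 in the PD libraries. The mean rose 5.62-fold, which is 2.50 on the log2 scale (standard error, SE, 0.21, edgeR adjusted p = 2.92e-06). Of all tested genes, 2.79% had a larger log2 fold change.

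Madcam1 encodes the mucosal addressin, which binds the integrin α4β7 of gut-homing lymphocytes and can also carry the decorated chains. Its levels were 17.1, 15.9 and 16.2 CPM in the saline mice and 19.3, 21.3 and 24.0 CPM in the PD mice. The groups were separate but close, with a 1.31-fold higher mean in PD mice. The log2 fold change was 0.39 (SE 0.11, edgeR adjusted p = 0.0109), and it turned to -0.59 when the libraries were scaled to endothelial markers. The number of Glycam1 counts per Madcam1 count was 0.0774, 0.137 and 0.0895 in the saline mice and 0.490, 0.469 and 0.348 in the PD mice. These ratios did not overlap (p = 0.1 in a two-sided exact permutation test, which cannot go lower with 3 mice against 3).

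The glycan enzymes act in sequence on these proteins. Chst4 is the sulfotransferase of high endothelial venules that makes the sulfated sialyl Lewis X epitope, and Chst2 is a more widely expressed enzyme with the same kind of activity. Chst4 was at 1.44, 0.415 and 1.41 CPM in the saline mice and at 5.70, 7.51 and 7.97 CPM in the PD mice. The saline value of 0.415 CPM stood well below the other two, and the PD mice were all above the 3 saline mice. The mean was 6.48-fold higher in PD mice, with a log2 fold change of 2.66 (SE 0.33, edgeR adjusted p = 5.98e-05), and it was 2.30 without saline replicate 2. Chst2 was at 3.48, 1.98 and 2.86 CPM in the saline mice and at 10.2, 6.84 and 6.21 CPM in the PD mice, with the first PD mouse set apart from the other two. Its log2 fold change was 1.48 (SE 0.25, edgeR adjusted p = 0.000512).

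Fut7 encodes the α1,3-fucosyltransferase needed for selectin ligands, and it is active in leukocytes as well as in high endothelial venules. Fut7 was at 2.58, 2.31 and 1.66 CPM in the saline mice and at 3.13, 4.74 and 5.07 CPM in the PD mice, so that the lowest PD mouse lay only just above the highest saline mouse. The log2 fold change was 0.98 (SE 0.26, edgeR adjusted p = 0.00754). Gcnt1 builds the core 2 branch on which the selectin ligands are extended, again in leukocytes and in venules. Its levels were 34.1, 41.7 and 36.4 CPM in the saline mice and 33.9, 29.6 and 33.3 CPM in the PD mice. The groups were only 0.17 CPM apart, and in FPKM they overlapped, at 9.87 to 12.2 in saline mice and 8.92 to 10.6 in PD mice. The difference of -0.21 on the log2 scale (95% confidence interval -0.43 to 0.01, edgeR adjusted p = 0.0898) did not pass the threshold. Of the 4 glycan enzymes, 3 thus rose and Gcnt1 was not called, and with scaling to endothelial markers Chst4 alone was called higher.

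Enpp2 encodes autotaxin, the enzyme that makes lysophosphatidic acid around high endothelial venules and promotes lymphocyte entry, and it is also made by adipocytes and fibroblasts. Enpp2 was at 74.2, 81.6 and 69.2 CPM in the saline mice and at 109, 126 and 134 CPM in the PD mice. The PD mice were all higher, by 1.64-fold in the mean. The log2 fold change was 0.72 (SE 0.09, edgeR adjusted p = 6.40e-05), and it turned to -0.26 with scaling to endothelial markers. Per the GENCODE M21 annotation, an exon of the non-coding gene Gm26684 on the opposite strand overlaps Enpp2, and since no strand setting is given, reads from the pair cannot be told apart. No exon of another gene overlapped any of the other 9 genes.

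The lymphotoxin genes split into receptor and ligands. Ltbr was at 6.52, 6.36 and 7.74 CPM in the saline mice and at 19.2, 17.0 and 15.3 CPM in the PD mice. The groups were well apart, with a 2.50-fold higher mean in PD mice and a log2 fold change of 1.32 (SE 0.14, edgeR adjusted p = 1.69e-05), which was 0.34 with scaling to endothelial markers. Lta, the chain that is also secreted on its own, was at 32.6, 27.0 and 34.7 CPM in the saline mice and at 18.9, 20.04 and 19.4 CPM in the PD mice. Ltb, the chain that anchors the complex to the membrane, was at 1101, 1022 and 1083 CPM in the saline mice and at 605, 632 and 705 CPM in the PD mice. Both ligand chains were lower in every PD mouse, by 1.62-fold for Lta and 1.65-fold for Ltb, a difference that was not called with scaling to B and T cell markers. Their log2 fold changes in PD mice were -0.69 (SE 0.11, edgeR adjusted p = 0.000297) and -0.72 (SE 0.07, edgeR adjusted p = 8.37e-06), respectively.

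Lta and Ltb fell to a similar degree. A PD library held 32.1, 31.5 and 36.3 Ltb counts for each Lta count, and a saline library 33.8, 37.9 and 31.2, so that the ratio overlapped between the groups (two-sided exact permutation test, p = 0.7). With 3 mice against 3 this p cannot go below 0.1, so the test cannot show that the ratio stayed equal. Between both genes on chromosome 17 lies Tnf, which encodes the related cytokine tumour necrosis factor. Tnf was at 6.79, 8.58 and 6.83 CPM in the saline mice and at 47.4, 46.6 and 46.1 CPM in the PD mice. It therefore changed opposite to its neighbours, with a log2 fold change of 2.66 (SE 0.11, edgeR adjusted p = 9.82e-09). The number of Ltb counts per Tnf count was 147 ± 23.8 in saline mice and 13.9 ± 1.29 in PD mice (SD, n = 3 mice each, exact permutation p = 0.1, the lowest possible).

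**Figure D2:**
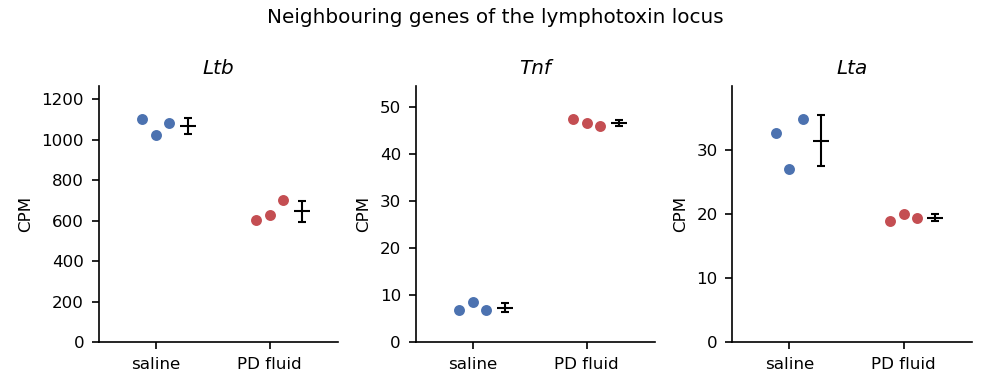
CPM of Ltb, Tnf and Lta, shown in their order along the chromosome, in each saline mouse (blue) and PD mouse (red), with mean and SD in black and linear axes from 0. The outer genes Ltb and Lta are lower in the PD mice, with means of 647 and 19.4 CPM, though not with scaling to B and T cell markers, and Tnf between them is higher, with a mean of 46.7 CPM.

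Per length, the order of the genes could be read from the FPKM values. In saline mice, Ltb was highest at 919 FPKM, followed by Enpp2 at 24.8, Lta at 22.6, Madcam1 at 13.6, Gcnt1 at 11.1, Ltbr at 3.25, Glycam1 at 2.61, Fut7 at 1.10, Chst4 at 0.564 and Chst2 at 0.377 FPKM. The ranges of Enpp2 and Lta, of Ltbr and Glycam1, and of Chst4 and Chst2 overlapped, so that these neighbours were not separated. In PD mice, Ltb was again highest at 560 FPKM and Chst2 lowest at 1.07 FPKM. Glycam1 moved from the seventh to the fourth place, at 14.8 FPKM, where its range overlapped that of Lta at 14.1 FPKM. Gcnt1, at 9.996 FPKM, likewise overlapped Ltbr, at 8.20 FPKM. Thus in saline mice the ligand chain Ltb exceeded every other gene of the group, and it did so still in PD mice.

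Marker lists of cell types also differed between the groups, in both directions. Of 12 lists, scored as the mean of log2(CPM + 1), 9 were higher in all PD mice and 2 lower, with an exact permutation p of 0.1 for each of these, which is the lowest possible, and 0.109 after adjustment over the 12 lists. The endothelial list was at 5.76 ± 0.07 in saline mice and 6.71 ± 0.05 in PD mice (SD, n = 3 mice each), with 11 of its 12 genes called higher. The lymphatic endothelial list, of which all 6 genes were called higher, was at 3.45 ± 0.03 and 5.43 ± 0.03. The B cell list fell from 8.86 ± 0.03 to 7.85 ± 0.04, with all 8 genes called lower, and its summed level was 6511 to 6788 CPM in saline mice and 3078 to 3136 CPM in PD mice. The T cell list was at 7.51 ± 0.01 and 7.33 ± 0.04, with 4 of 8 genes called lower and none higher, and its summed level was 1673 to 1763 and 1357 to 1463 CPM. Neutrophil genes, at 14.6 to 17.1 CPM in sum in saline mice, were at 211 to 227 CPM in PD mice, and macrophage and dendritic cell genes went from 2132 to 2260 to 8510 to 9144 CPM. Fibroblast genes were at 92.8 to 96.1 and 801 to 846 CPM in sum, and the adipocyte list overlapped between the groups, at 10.6 to 12.3 and 10.5 to 14.1 CPM. Mesothelial genes were at 13.5 to 17.2 and 147 to 172 CPM, pericyte and smooth muscle genes at 272 to 294 and 422 to 470 CPM, and genes of natural killer and innate lymphoid cells at 270 to 310 and 339 to 366 CPM. Pancreatic acinar genes were at 1.02 to 2.86 CPM in saline mice and 5632 to 6358 CPM in PD mice. No gene of these lists was at 3 counts or fewer in all 6 libraries. However, only 2 of the 6 acinar genes exceeded 3 counts in every library, so the acinar values of the saline mice lie near the floor. The neutrophil, adipocyte, and pericyte and smooth muscle lists had 5 of 6 genes above 3 counts in every library. The part of these cells in the changes of the 10 genes was not tested.

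**Figure D3:**
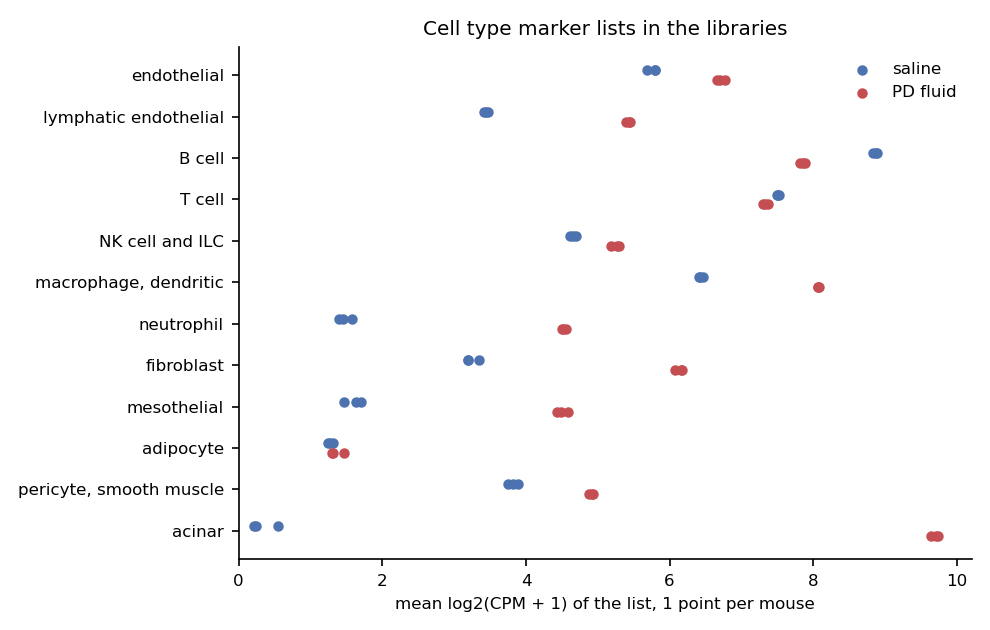
Mean log2(CPM + 1) of 12 cell type marker lists, with 1 point per mouse, saline in blue and PD fluid in red. The B cell and T cell lists are lower in the PD mice, by 1.01 and 0.18, the adipocyte lists overlap, and the other 9 are higher.

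To read the 10 genes relative to the endothelial content, the libraries were scaled to the 12 endothelial marker genes. This moved the median log2 fold change of all tested genes from 0.02 to -0.96, and 8.21% of them were then called higher and 72.3% lower. Relative to the endothelial markers, Glycam1 was still higher, with a log2 fold change of 1.51 (SE 0.23, edgeR adjusted p = 7.21e-06). Chst4 was so with 1.70 (SE 0.31, edgeR adjusted p = 5.75e-05), and Ltbr with 0.34 (SE 0.15, edgeR adjusted p = 0.0420). Chst2, at 0.50 (edgeR adjusted p = 0.0534), did not pass the threshold. Neither did Fut7, at 0.00 with a 95% confidence interval from -0.57 to 0.57. Madcam1, at -0.59, and Enpp2, at -0.26 (edgeR adjusted p = 0.0477), were called lower, although both lay above the shifted median of all genes. Gcnt1, at -1.20, Lta, at -1.67, and Ltb, at -1.70, were called lower and lay below that median. The saline and PD mice overlapped with this scaling for Chst2, Fut7 and Enpp2. For Enpp2 they were at 94.8 to 121 and 74.7 to 98.9, in CPM of the scaled libraries. On this scale the 12 markers had themselves moved unequally, from -0.85 for Pecam1 to 0.67 for Tie1, with 3 called higher and 3 lower. The SE and adjusted p leave out this spread, within which Ltbr, Chst2, Fut7, Enpp2 and Madcam1 lay.

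To read them relative to the lymphocyte content, the libraries were scaled to 16 marker genes of B and T cells, which moved the median of all tested genes to 0.62, with 75.5% called higher and 2.03% lower. Lta then had a log2 fold change of -0.09 (95% confidence interval -0.33 to 0.15, edgeR adjusted p = 0.459). For Ltb it was -0.12 (95% confidence interval -0.27 to 0.03, edgeR adjusted p = 0.139). On this scale the values of the saline and PD mice overlapped for both ligand chains, at 22.1 to 28.02 and 23.2 to 24.7 for Lta and at 838 to 888 and 745 to 869 for Ltb, in CPM of the scaled libraries. The other 8 genes were called higher, including Gcnt1 with 0.39, which thus changed its sign. The B and T cell genes had not changed equally. With the 8 B cell genes alone, an alternative chosen after seeing the data, Lta and Ltb were called higher, at 0.33 and 0.30, but below the median of all tested genes, which this scaling moved to 1.04. With the 8 T cell genes alone, likewise added, they were called lower, at -0.51 and -0.54 (edgeR adjusted p = 0.0029 and 2.63e-05), beside a median of 0.20. The result for the ligand chains thus depended on which lymphocyte markers were used.

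**Figure D4:**
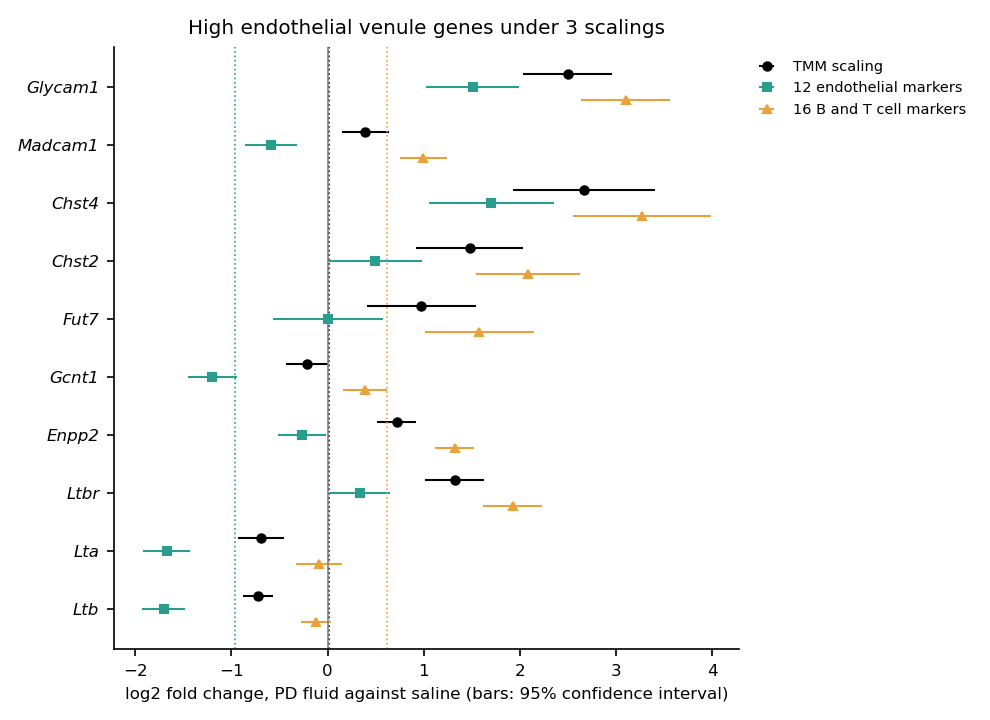
Log2 fold change of PD mice against saline mice with its 95% confidence interval for the 10 genes, under TMM scaling (black), scaling to endothelial markers (green) and scaling to B and T cell markers (orange). Dotted lines mark the median of all tested genes under each scaling, at 0.02, -0.96 and 0.62. Glycam1, Chst4, Chst2 and Ltbr stay above 0 under all 3, though Chst2 is not called relative to endothelial markers, Madcam1 and Enpp2 turn negative relative to endothelial markers, and Gcnt1 turns positive relative to lymphocyte markers.

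The same pathways were followed in 58 further genes, of which 55 were tested. In PD mice, 33 of these (60%) were called higher and 9 (16.4%) lower, against 31.1% and 27.8% of all tested genes. The 55 genes had a median log2 fold change of 0.61, against 0.02 for all tested genes. Scaled to endothelial markers, 12 were higher and 28 lower, against 8.21% higher and 72.3% lower of all tested genes. Unless another scaling is named, the directions and counts in this and the next paragraphs are those of TMM scaling. The share called among all tested genes, 31.1% higher and 27.8% lower, applies to each of these counts. All 3 further sialomucin scaffolds of these chains rose. They were Podxl, which encodes podocalyxin, with a log2 fold change of 1.40 (SE 0.10), Cd34 with 1.07 (SE 0.06) and Emcn, which encodes endomucin, with 0.90 (SE 0.08). Relative to endothelial markers their values were 0.42, 0.09 and -0.08. Of 12 genes for the sialyl Lewis X structure and its sulfation, 6 rose, 1 fell, 3 were not called and Gcnt3 and Gcnt4 were too low to be tested. The changes were led by B3gnt3, the enzyme that extends the core 1 branch, at 1.27 (SE 0.09), Fut4, a further fucosyltransferase, at 0.98 (SE 0.20), and Papss2, which makes the sulfate donor, at 0.92 (SE 0.12). The single gene that fell was the galactosyltransferase B4galt1, at -0.34 (SE 0.09, edgeR adjusted p = 0.00713). Scaled to endothelial markers, 1 of the 10 tested genes of this list was higher and 5 were lower. On that scale B3gnt3 was at 0.29, Fut4 at -0.001 and Papss2 at -0.06, the last 2 not called.

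Of 13 genes of lymphotoxin and tumour necrosis factor signalling, 6 rose (46.2%), 4 fell (30.8%) and 3 were not called. Among all tested genes 31.1% were higher and 27.8% lower. Scaled to endothelial markers, 2 of the 13 were higher and 9 lower, against 8.21% and 72.3% of all tested genes. Beside Tnf, the largest changes were in its receptors Tnfrsf1a, at 1.43 (SE 0.11), and Tnfrsf1b, at 1.19 (SE 0.11). The other genes named in this paragraph up to Chuk were singled out after their values were seen. Tnfsf14, which encodes LIGHT, a second ligand of the lymphotoxin β receptor, rose by 0.85 (SE 0.17) on the log2 scale. The non-canonical NF-κB subunits Nfkb2 and Relb had log2 fold changes of 0.68 (SE 0.15) and 0.61 (SE 0.11). Their upstream kinase gene Map3k14, at 0.09 (edgeR adjusted p = 0.713), was not called, whereas Chuk, the kinase that it activates, fell by 0.46 (SE 0.07). The others that fell were Birc2, Birc3 and Traf2, at -0.36, -0.28 and -0.22. With scaling to endothelial markers, Tnfsf14 was at -0.13, and Nfkb2 at -0.30 and Relb at -0.37 were called lower. Among 6 homing chemokines and cytokine genes linked to lymphotoxin, 5 rose and Ccl19 was not called. Cxcl13, the B cell chemoattractant, was at 14.8, 16.8 and 15.6 CPM in the saline mice and at 288, 318 and 338 CPM in the PD mice, a log2 fold change of 4.32 (SE 0.09). Ccl21a, a ligand of Ccr7 with near-identical copies among which reads could be split, was at 2.63 (SE 0.08), and Cxcl12 at 1.31 (SE 0.12). Scaled to endothelial markers, 3 of these 6 genes were higher, namely Cxcl13 at 3.34, Ccl21a at 1.65 and Cxcl12 at 0.33, and 2 were lower.

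Of 9 genes of the lysophosphatidic acid axis, 5 rose, 3 were not called and Lpar3 was too low to be tested. The receptor Lpar1 had a log2 fold change of 1.70 (SE 0.18), and the phosphatases Plpp3 and Plpp1, which degrade the lipid, had 1.24 (SE 0.07) and 1.17 (SE 0.09). Relative to endothelial markers these 3 values were 0.72, 0.26 and 0.19, the last not called. With that scaling 2 of the 8 tested genes were higher and 3 lower, against 8.21% and 72.3% of all tested genes. All 7 genes of venular endothelium rose, with the largest changes in the selectins Sele, at 3.04 (SE 0.11), and Selp, at 1.71 (SE 0.07), and in Vwf, at 1.48 (SE 0.17), but with scaling to endothelial markers 3 of the 7 were higher and 1 lower. The median of these 7 genes was 1.13, beside 0.97 for the 12 general endothelial markers, and 0.14 with that scaling. Among the lymphocyte receptors that meet these venules, 1 of 8 rose, 4 fell and 3 were not called. Cxcr5, the receptor for Cxcl13, and Itga4, the α4 chain that binds Madcam1, fell by 0.73 (SE 0.06) and 0.44 (SE 0.07) on the log2 scale, and relative to B and T cell markers their values were -0.13 and 0.16. With that scaling 5 of the 8 receptors were called higher and 0 lower, against 75.5% and 2.03% of all tested genes.

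**Figure D5:**
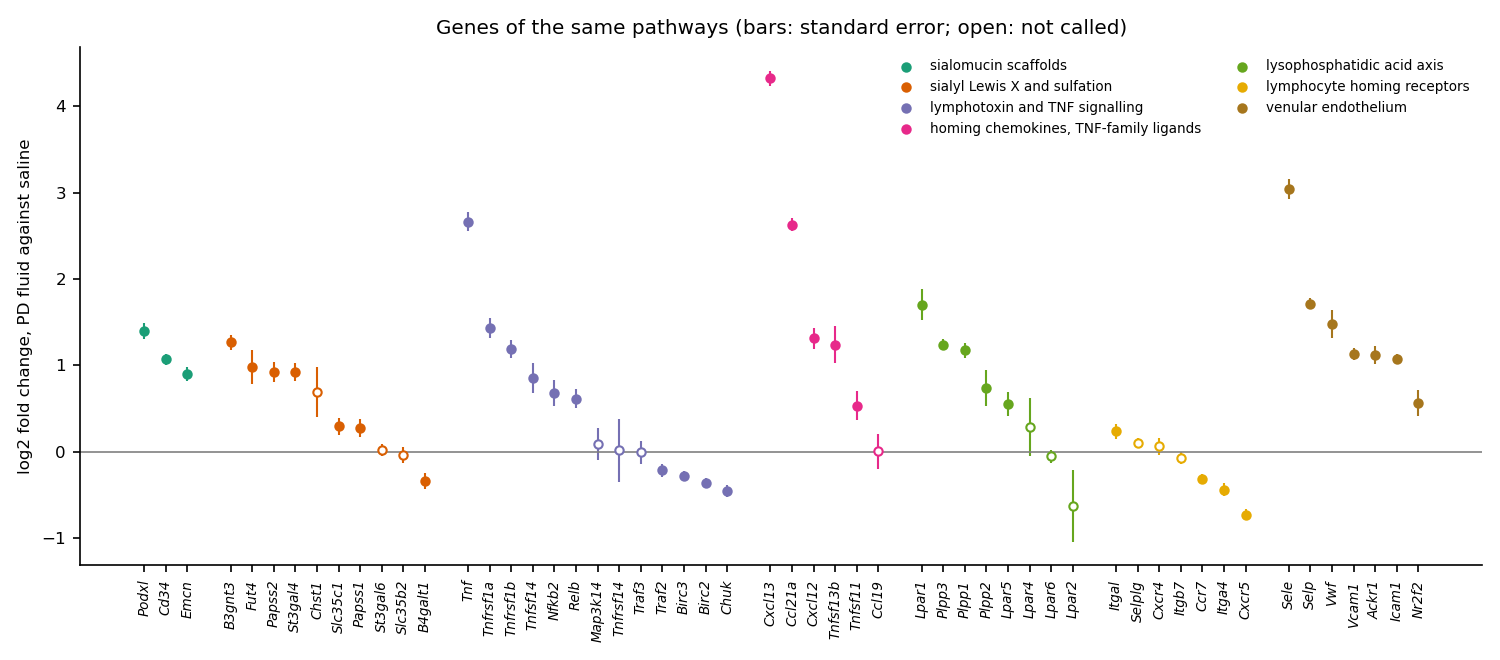
Log2 fold change of PD mice against saline mice with its SE for the tested genes of the same pathways, 1 of which is left out of the plot, grouped by role and under TMM scaling, with filled points for genes called in edgeR's quasi-likelihood test. The sialomucin scaffolds and venular genes are all above 0, Cxcl13 is highest at 4.32, and the lymphocyte homing receptors reach down to -0.73; relative to endothelial markers 28 of the 55 genes were lower, as were 72.3% of all tested genes.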

How the data were processed

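RNA sequencing was done on 1 library per mouse. The authors deposited a read count for each of 22183 genes without normalization, and the authors' FPKM values for the same libraries. The submitters' processing notes name fastp 0.18.0, Bowtie2 2.2.8, HISAT2, StringTie 1.3.1 and RSEM. The genome build, annotation and strand setting are not given in the sources used here. The table also holds the authors' mean FPKM, log2 ratio, p-value and FDR, which were deposited but not used. Every sample column was matched to a sample.

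Counts were filtered with edgeR's filterByExpr, scaled by TMM and tested by edgeR's quasi-likelihood test on group alone (threshold 0.05 on the Benjamini-Hochberg adjusted p) (edgeR 4.0.16 in R 4.3.3, with DESeq2 1.42.0 and limma 3.58.1 for alternatives, and Python 3.11.15, pandas 2.3.3, numpy 2.4.6, scipy 1.17.1, matplotlib 3.10.9). The study names limma, which was tried as voom. Standard errors and confidence intervals were derived from the F statistic. For marker scaling, each library was scaled to the geometric mean of the marker counts plus 0.5. FPKM was used for levels between genes and for the levels of some genes in each group, but in no test. Replicates differed beyond counting noise in chi-square tests of their counts, so each mouse was counted separately. Promoter sequences are from RefSeq on GRCm38.p6. On simulated counts, 196 of 200 changed genes among 13502 tested were recovered, and 18 unchanged genes were called. Only these 200 genes, all well counted, were changed, so the simulation does not cover data in which 58.9% of genes were called. From each pathway list, up to 3 genes with the largest absolute log2 fold change are named, and for each of the 10 genes the 3 genes with the highest correlation were determined. The 10 genes, lists and tests were chosen with earlier results of these data known. A gene that this rule names is not reported here.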

Additional observations from a re-analysis of the deposited data

How the results depend on the processing

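The 10 genes were refitted under 15 alternatives: DESeq2, RLE scaling, limma-voom, no filter on low counts, the replicate number as a block, each mouse left out in turn, and scaling to endothelial, to B and T cell, to B cell or to T cell markers, of which the last 2 were chosen after seeing the data. Glycam1, Chst4 and Ltbr kept their direction and call in all 15. Without the 4 marker scalings, the other genes did so too, with Glycam1 between 2.37 and 2.74, Madcam1 between 0.31 and 0.46, and Ltb between -0.78 and -0.68. With each mouse left out, 6996 to 8018 genes were called in all, and 37 to 43 of the 55 pathway genes.

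Scaling to endothelial markers gave 3 higher and 5 lower of the 10 genes, with Madcam1 at -0.59 and Enpp2 at -0.26, and 12 higher and 28 lower pathway genes; of all genes, 1150 were higher and 10132 lower. Scaling to B and T cell markers gave 0 lower of the 10 genes and 0 lower pathway genes in edgeR's test, also at an unadjusted p under 0.05, with Gcnt1 at 0.39; of all 14005 genes, 10572 were higher and 285 lower. Scaling to B cell markers gave 13017 called genes in all, 12963 of them higher and 54 lower with a median of 1.04 over all genes, and 54 higher and 0 lower pathway genes and 0 lower of the 10 genes in edgeR's test, also unadjusted, with Gcnt1 at 0.81, Lta at 0.33 and Ltb at 0.30. Scaling to T cell markers gave 7 higher and 2 lower of the 10 genes, with Lta and Ltb the 2 lower. It gave 37 higher and 6 lower pathway genes, and 5696 higher and 2086 lower of all genes. No other tool was run with these scalings. By construction, each of these scalings shifts all genes by the change of its marker genes; beyond that the cause was not tested.

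With the replicate block, 7909 genes were called against 8246, and 9 of the 10 genes, with no call among them changed. The numbers did not pair the mice: deviations of same-numbered mice correlated at 0.19, 0.07 and -0.27, and not every mouse correlated best with its own number. Depth limits Chst4, Glycam1, Chst2 and Fut7 most, which had 9 to 89 counts in saline libraries.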

Other observations

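Over the 6 libraries, the genes most like Glycam1 in log2(CPM + 1) were Gusb, Lcn2 and Tppp3, and those most like Chst4 were Runx2, Pik3r6 and Card19, with Pearson's r of at least 0.997 for all 6. For Ltb they were Trim34a, Fan1 and Acd, with r of 0.998 or more. These correlations are a description over 6 points that share the split into saline and PD mice.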
